A study of Mus musculus with 5 samples.

Results

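p53, the transcription factor encoded by Trp53, and 9 genes that it is known to induce were followed through 5 mouse cell populations: embryonic stem (ES) cells, hepatoma cells, the hybrids made by fusing them, and the same hybrids after 7 and 14 days of differentiation. The members were Trp53, Mdm2, Cdkn1a, Ccng1, Gadd45a, Bbc3, Bax, Perp, Trp53inp1 and Sesn2, chosen by name, and all array probes whose transcript record maps to 1 of these genes were used. These were 14 of the 41174 gene probes on the array and 10 of the 15446 named genes with a probe well above background on at least 1 array. All 14 probes were called well above background by the scanner software on all 5 arrays, so no member was lost to a filter on dim signal.

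Each population was measured on 1 Agilent array in 1 colour. ES was the line E14, grown with leukemia inhibitory factor in medium holding serum replacement and a little fetal bovine serum. According to the study these cells carried red fluorescent protein and hygromycin resistance. Hepa1-6, a mouse hepatoma line that carried green fluorescent protein and neomycin resistance, was kept in high-glucose Dulbecco medium and fetal calf serum. EHe was the hybrid of E14 and Hepa1-6, grown like ES. It came from colonies picked after double drug selection, and the sources used here do not give which colony went on the array. EHeD7 and EHeD14 were EHe differentiated for 7 and 14 days, by the labels as a gelatin-plated monolayer in serum-containing high-glucose medium that lacked leukemia inhibitory factor, whereas the methods of the study describe embryoid bodies and serum replacement. The medium therefore changed together with the state of the cells, and medium and cell state cannot be told apart. The 4 arrays other than Hepa1-6 lay on slide 1 and Hepa1-6 on slide 2, so the slide cannot be told apart from the hepatoma line.

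A level is given below as the log2 of the background-corrected signal over the 75th percentile of its array, so that 0 is that percentile and 1 unit is 2-fold. The percentile lay between 1087 and 1456 intensity units, 54.6% to 67.6% of probes were well above background, and no spot was saturated. With 1 array per population there was no replicate, and no test between populations was made. The probes of Trp53, Mdm2, Cdkn1a and Bax that were printed 10 times have an SD over their spots (n = 10, or n = 9 for Cdkn1a in Hepa1-6, where 1 spot was an outlier). For a probe with 1 spot, the error estimated by the scanner software was 0.14 on the log2 scale on each array and thus 0.20 for a difference between 2 arrays. Both errors cover the measurement on an array and not the spread between cultures. A difference counted as large past 3-fold, with 2-fold as an alternative. In such bulk samples, fewer cells of a type and less RNA per cell cannot be told apart.

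p53 is kept scarce in unstressed cells by Mdm2, which binds it and marks it for degradation, and Mdm2 is itself induced by p53, which closes a feedback loop. When DNA damage or another stress stabilises p53, it binds paired decamers in or near its target genes and induces products that arrest the cell cycle, start apoptosis or lower oxidative stress. ES cells are known for abundant p53, and hepatomas often carry a damaged pathway. The level of Trp53 transcript does not measure the activity of the protein, which is set mainly after translation.

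The sequence before the start site was read for the 8 members that had a promoter window in the RefSeq tables (build GRCm38.p6). Trp53inp1 and Perp had no window there. The motif searched was the p53 half-site, a decamer of 3 purines, C, 2 letters that are A or T, G and 3 pyrimidines, which reads alike on both strands. At least 1 half-site was found in the windows of Trp53, Mdm2, Cdkn1a, Ccng1, Gadd45a and Bax, 6 of 8 members, against 9.55% of 27025 genes over windows of the same length, from 250 bases before the start to 50 after it. The windows of Bbc3 and Sesn2 held none of these letters. The 250 bases before the start of the 6 genes are shown because they are the regulatory sequence nearest to the transcripts measured here, with the half-sites in capitals.

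Trp53 (chr11:69580109-69580358, plus strand): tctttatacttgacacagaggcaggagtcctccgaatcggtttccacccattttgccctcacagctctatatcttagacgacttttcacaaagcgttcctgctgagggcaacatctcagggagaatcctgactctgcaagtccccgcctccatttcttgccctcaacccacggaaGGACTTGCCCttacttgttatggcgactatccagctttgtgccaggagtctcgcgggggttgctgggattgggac
Mdm2 (chr10:117710759-117711008, minus strand): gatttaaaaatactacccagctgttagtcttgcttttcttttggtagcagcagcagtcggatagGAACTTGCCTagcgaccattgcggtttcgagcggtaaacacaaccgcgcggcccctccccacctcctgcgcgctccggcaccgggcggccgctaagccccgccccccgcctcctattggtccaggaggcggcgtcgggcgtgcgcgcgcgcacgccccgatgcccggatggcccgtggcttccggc
Cdkn1a (chr17:29090729-29090978, plus strand): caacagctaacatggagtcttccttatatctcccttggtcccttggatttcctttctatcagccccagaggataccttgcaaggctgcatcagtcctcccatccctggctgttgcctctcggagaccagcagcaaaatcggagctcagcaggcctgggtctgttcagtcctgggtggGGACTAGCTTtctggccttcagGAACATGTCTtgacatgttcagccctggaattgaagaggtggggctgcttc
Ccng1 (chr11:40755287-40755536, minus strand): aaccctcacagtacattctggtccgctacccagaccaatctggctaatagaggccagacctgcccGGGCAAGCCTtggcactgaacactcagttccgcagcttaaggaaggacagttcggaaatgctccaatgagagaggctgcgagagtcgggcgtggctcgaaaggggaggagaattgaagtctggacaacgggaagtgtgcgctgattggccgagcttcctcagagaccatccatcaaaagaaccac
Gadd45a (chr6:67037408-67037657, minus strand): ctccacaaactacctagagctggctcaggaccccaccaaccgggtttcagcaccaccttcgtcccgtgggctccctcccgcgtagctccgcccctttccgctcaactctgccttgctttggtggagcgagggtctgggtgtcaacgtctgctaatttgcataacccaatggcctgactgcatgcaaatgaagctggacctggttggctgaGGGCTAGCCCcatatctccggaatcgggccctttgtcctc
Bax (chr7:45466899-45467148, minus strand): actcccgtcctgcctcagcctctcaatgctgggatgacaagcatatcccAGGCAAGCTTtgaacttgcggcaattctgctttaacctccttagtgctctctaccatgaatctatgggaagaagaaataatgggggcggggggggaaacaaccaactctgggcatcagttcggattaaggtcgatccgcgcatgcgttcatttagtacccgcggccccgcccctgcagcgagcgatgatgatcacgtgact

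Cdkn1a was the 1 member whose window held 2 exact half-sites no more than 13 bases apart, a spacing that p53 response elements allow. They were separated by 12 bases at chr17:29090906-29090937 and began 73 bases before the start of the longer transcript. Such a pair was found in 0.0740% of genes. A second start site of Cdkn1a lay 2790 bases further downstream, and its window held no half-site. When 1 mismatch over the pair was allowed, a choice made after the exact matches had been seen, Ccng1 also had a pair, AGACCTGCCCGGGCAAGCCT at chr11:40755462-40755481, and 0.718% of genes did. Only the best pair of each window was kept. In Cdkn1a the second half-site, GAACATGTCT, is followed directly by TGACATGTTC, which departs from the motif at its first letter. These abutting decamers are thus also a pair with 1 mismatch, and which pair p53 binds was not tested. The known p53 response elements of Mdm2 lie in an intron, outside the sequence shown. A match describes letters in a window and shows no binding.

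Trp53 (chr11:69580348-69591873) was measured by a probe printed 10 times and by a probe with 1 spot. The probe printed 10 times had a level of 3.53 ± 0.079 in ES and 3.18 ± 0.067 in EHe, 2.28 ± 0.066 on day 7 and 1.99 ± 0.088 on day 14 of differentiation, and 1.68 ± 0.065 in Hepa1-6 (log2, SD over 10 spots). The level was thus highest in ES, a little lower in the hybrid, lower again in the differentiated hybrids and lowest in Hepa1-6, and the spots of no array overlapped with those of the next one in this order. The last step depends on the scaling and on the probes, since EHeD14 lay 0.31 above Hepa1-6 here and had a difference of -0.52 with median centring and -0.07 with the mean of the probes. On the log2 scale EHeD7 lay 0.90 and EHeD14 1.19 below EHe, a level 2.28-fold lower at day 14, and Hepa1-6 was 3.59-fold lower than ES. The other Trp53 probe gave 1.33 in ES and 1.39 in EHe, 1.43 on day 7 and 1.04 on day 14 of differentiation, and 1.48 in Hepa1-6. On this probe ES, EHe, EHeD7 and Hepa1-6 followed each other within the error of neighbours, and EHeD14 alone lay below, by 0.35 against EHe. The 2 probes differed by 0.84 in their EHeD14 minus EHe difference, a gap exceeded by 9.04% of the 4415 genes with several detected probes, whose median gap was 0.24. Which part of the transcript each probe reads was not analysed here, and the lower Trp53 level in Hepa1-6 and in EHeD7 rests on the probe printed 10 times, while EHeD14 was below EHe on both probes.

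**Figure D1:**
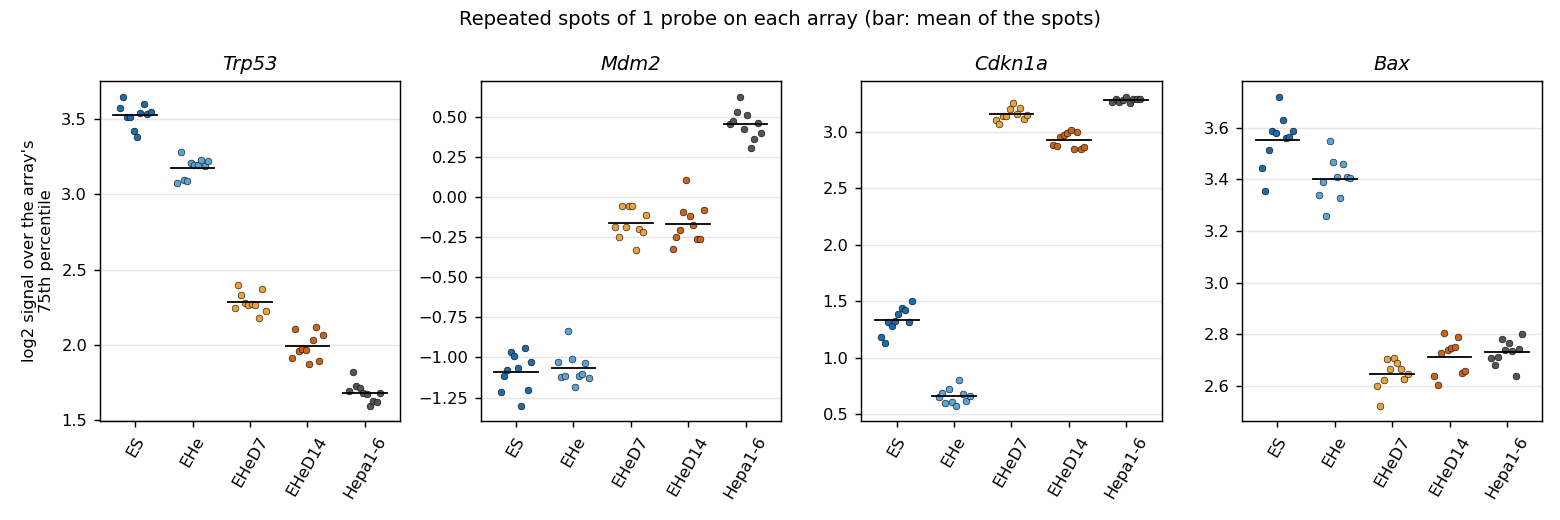
Single spots of the probes printed 10 times for Trp53, Mdm2, Cdkn1a and Bax on the 5 arrays, with the log2 signal over the array's 75th percentile on the y axis, which has its own range in each panel, and a bar at the mean of the spots. The spots of Trp53 and Cdkn1a form separate groups on every array, those of Bax fall into ES and EHe above and the other 3 arrays below, and those of Mdm2 overlap between ES and EHe and between EHeD7 and EHeD14.

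Mdm2 (chr10:117688875-117710758) encodes the ubiquitin ligase that restrains p53. Its brighter probe had a level of 1.20 in ES and 1.27 in EHe, 2.02 on day 7 and 2.11 on day 14 of differentiation, and 2.44 in Hepa1-6. The probe printed 10 times gave -1.09 ± 0.12, -1.07 ± 0.098, -0.16 ± 0.094, -0.17 ± 0.12 and 0.45 ± 0.090 in the same order. Both probes put ES and EHe together at the bottom, the differentiated hybrids together in the middle and Hepa1-6 at the top. The difference between EHeD14 and EHe was 0.84 on the first probe and 0.90 on the second, 1.79-fold and 1.87-fold, and Hepa1-6 was 2.36-fold and 2.92-fold above ES. Mdm2 stayed under 3-fold in each comparison on this scale, and its probes differed by 0.063 at day 14. With median centring it passed 3-fold between Hepa1-6 and ES, at 2.02 on the log2 scale, and between EHe and Hepa1-6, at -1.84.

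Of the members that act on the cell cycle, Cdkn1a (chr17:29090979-29100722) encodes p21, the inhibitor of cyclin-dependent kinases through which p53 holds cells in G1. Its level was 1.33 ± 0.12 in ES and 0.66 ± 0.067 in EHe, 3.16 ± 0.055 on day 7 and 2.93 ± 0.067 on day 14 of differentiation, and 3.29 ± 0.017 in Hepa1-6. Before scaling these were signals of 2732, 2039, 11649, 10148 and 14195 intensity units. The differentiated hybrids and Hepa1-6 formed a high group and ES and EHe a low one, with EHe the lowest of all, and the spots did not overlap between any neighbouring arrays. Cdkn1a was 5.65-fold higher in EHeD7 and 4.82-fold higher in EHeD14 than in EHe, and 3.88-fold higher in Hepa1-6 than in ES. EHe lay 6.18-fold below its Hepa1-6 parent and 1.59-fold below its ES parent.

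Ccng1 (chr11:40748552-40755309) encodes cyclin G1, a p53-induced protein that feeds back on Mdm2. Its brighter probe had a level of 4.43 in ES and 3.84 in EHe, 5.54 on day 7 and 5.74 on day 14 of differentiation, and 4.48 in Hepa1-6, and the other probe 3.11, 3.01, 4.18, 4.16 and 3.36. Here the differentiated hybrids stood above both parents on both probes, and the hepatoma line was next to ES. Against EHe, EHeD7 was 3.24-fold and EHeD14 3.73-fold higher on the brighter probe and 2.24-fold and 2.21-fold higher on the other, so that the 3-fold threshold was passed on 1 probe of 2. EHeD14 also exceeded Hepa1-6, by 2.41-fold on the brighter probe and 1.74-fold on the other, but with median centring the difference on the brighter probe went from 1.27 to 0.44 on the log2 scale, under 2-fold.

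Gadd45a (chr6:67035096-67037407) encodes a small stress protein that acts at the G2 checkpoint and in DNA repair. Its level was 1.30 in ES and 1.99 in EHe, 0.42 on day 7 and -0.35 on day 14 of differentiation, and 2.73 in Hepa1-6. EHe was thus the highest of the hybrid arrays, where it was the lowest for Cdkn1a, and both differentiated hybrids were at the bottom. EHeD7 was 2.98-fold and EHeD14 5.06-fold lower than EHe, EHeD14 was 1.70-fold lower than EHeD7, and EHeD14 was 8.45-fold lower than Hepa1-6. Gadd45a was the only member past 3-fold lower than EHe on either day, and it passed on day 14.

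**Figure D2:**
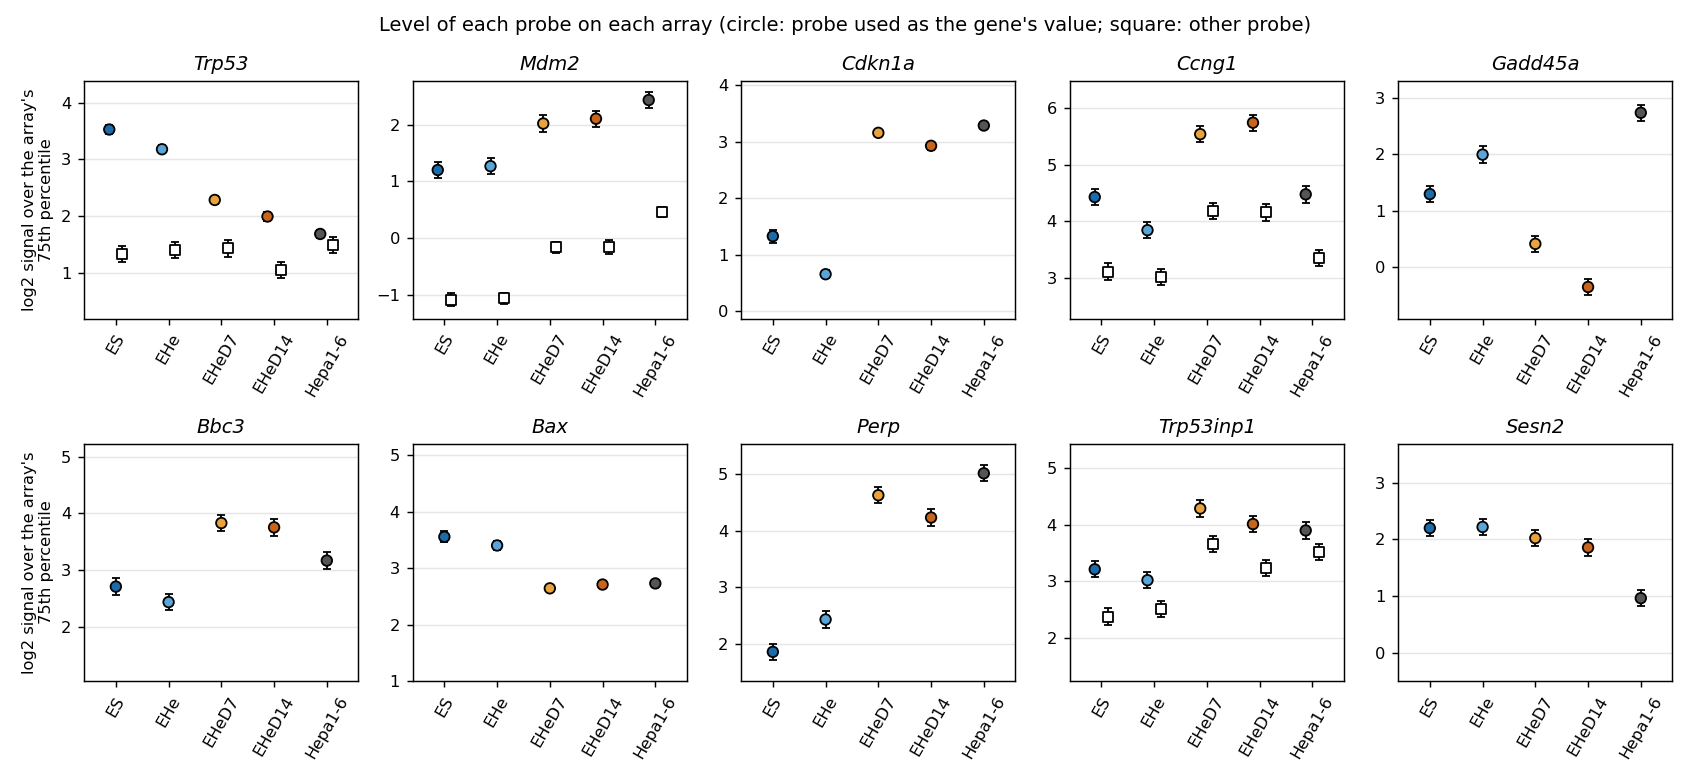
Level of each of the 14 probes on each array, as the log2 signal over the array's 75th percentile, with panels of equal height in log2 units. Circles are the probe used as the gene's value and squares the other probe, and error bars are the SD over the repeated spots or, for probes with 1 spot, the error of the scanner software. Cdkn1a, Mdm2, Ccng1, Bbc3, Trp53inp1 and Perp are higher in EHeD7 and EHeD14 than in ES and EHe, and Gadd45a spans from -0.35 in EHeD14 to 2.73 in Hepa1-6.

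Of the members that act in cell death, Bbc3 (chr7:16308398-16318334) encodes Puma, which binds the anti-apoptotic members of the Bcl2 family. Its level was 2.71 in ES and 2.43 in EHe, 3.83 on day 7 and 3.75 on day 14 of differentiation, and 3.17 in Hepa1-6. Both differentiated hybrids stood above both parents, at levels within the error of each other, but with median centring EHeD14 minus Hepa1-6 turned from 0.59 to -0.24. Bbc3 was 2.63-fold higher in EHeD7 and 2.50-fold higher in EHeD14 than in EHe, short of 3-fold.

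Bax (chr7:45461695-45466903) encodes a pore-forming protein of the mitochondrial outer membrane and was lower after differentiation. Its level was 3.55 ± 0.10 in ES and 3.40 ± 0.081 in EHe, 2.64 ± 0.056 on day 7 and 2.71 ± 0.068 on day 14 of differentiation, and 2.73 ± 0.049 in Hepa1-6. On this scale the spots of ES and EHe overlapped with each other and lay above all spots of the other 3 arrays, which overlapped among themselves. The place of Hepa1-6 depends on the scaling. With median centring Hepa1-6 minus ES went from -0.82 to -0.04 and EHeD14 minus Hepa1-6 from -0.02 to -0.85. Bax was 1.69-fold lower in EHeD7 and 1.61-fold lower in EHeD14 than in EHe, and its 1.88-fold range over the 5 arrays was the smallest among the members.

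Perp (chr10:18845071-18857073) encodes a membrane protein that takes part in p53-dependent apoptosis and, in epithelia, in desmosomes. Its level was 1.86 in ES and 2.43 in EHe, 4.62 on day 7 and 4.23 on day 14 of differentiation, and 5.01 in Hepa1-6, and all neighbours in this order differed beyond their error. Perp was 4.58-fold higher in EHeD7 and 3.49-fold higher in EHeD14 than in EHe and 8.91-fold higher in Hepa1-6 than in ES, the widest range among the members. The epithelial keratins Krt8 and Krt18, listed here as trophoblast markers, were likewise higher in the differentiated hybrids and in Hepa1-6 than in ES and EHe. Krt8 lay at 1.65 in ES and -0.65 in EHe, 5.02 on day 7 and 5.64 on day 14 of differentiation, and 7.49 in Hepa1-6. Their part in the Perp values was not tested.

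Trp53inp1 (chr4:11156441-11174379) encodes a nuclear protein that promotes p53-dependent death and autophagy. Its brighter probe had a level of 3.21 in ES and 3.02 in EHe, 4.29 on day 7 and 4.01 on day 14 of differentiation, and 3.90 in Hepa1-6, and the other probe 2.37, 2.51, 3.66, 3.23 and 3.51. ES and EHe were low on both probes and within the error of each other. EHeD7 was 2.41-fold higher than EHe on the brighter probe and 2.22-fold higher on the other, and EHeD14 1.99-fold and 1.65-fold. Sesn2 (chr4:132492804-132510456), a sestrin that lowers oxidative stress and restrains mTOR signaling, had a level of 2.20 in ES and 2.22 in EHe, 2.02 on day 7 and 1.86 on day 14 of differentiation, and 0.96 in Hepa1-6. Neighbours among the first 4 arrays differed by less than the error, and Hepa1-6 stood apart on this scale, 2.36-fold below ES. With median centring Sesn2 in Hepa1-6 minus ES went from -1.24 to -0.46. EHeD14 minus Hepa1-6 then went from 0.90 to 0.07, less than the error.

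The 10 members were then read together for each comparison. Between EHe and ES, which asks whether fusion moved the pathway away from the ES state, 0 of 10 members passed 3-fold upwards and 0 downwards, where 2.93% and 5.9% of all named genes did. None of the 10 was past 2-fold either, against 7.46% higher and 13.3% lower over all genes. The largest differences were Gadd45a, 1.62-fold higher, and Cdkn1a, 1.59-fold lower.

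Between EHeD7 and EHe, 3 of 10 members were over 3-fold higher, Cdkn1a, Ccng1 and Perp, against 9.37% of all genes, and 0 were over 3-fold lower, against 4.67%. Between EHeD14 and EHe, the same 3 genes were over 3-fold higher, against 9.58%, and 1 gene, Gadd45a, was over 3-fold lower, against 5.15%. These comparisons share the EHe array, so that a deviation of that array would enter both. The median log2 difference of the 10 members was 1.01 at day 7 and 0.92 at day 14, while that of all named genes was -0.08 and -0.05. Past 2-fold, 5 members were higher and 1 lower at day 7, with Bbc3 and Trp53inp1 added to the first 3, and 4 were higher and 2 lower at day 14, when Trp53 joined Gadd45a. Over all genes 16.2% and 10.7% passed 2-fold higher and lower at day 7, and 16.1% and 9.83% at day 14. Between EHeD14 and EHeD7, 0 members passed 3-fold in either direction, against 1.06% higher and 1.19% lower, and the largest difference was Gadd45a.

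Setting both differentiated arrays against both arrays of undifferentiated cells avoids resting on EHe alone. Cdkn1a, Mdm2, Ccng1, Bbc3, Trp53inp1 and Perp were higher in EHeD7 and in EHeD14 than in either ES or EHe, 6 of 10 members, against 26.1% of all genes. Trp53, Bax, Gadd45a and Sesn2 were lower in both than in either, 4 of 10, against 36.7%. This count was added after the data had been seen. It takes no account of error or of other probes. Sesn2 in EHeD7 lay 0.18 below ES, less than the error of 0.20. On the other Trp53 probe EHeD7, at 1.43, was not below ES, at 1.33, or EHe, at 1.39. Each of the 6 genes above ES and EHe is a transcriptional target, and the 4 below include Trp53 itself together with 3 targets.

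**Figure D3:**
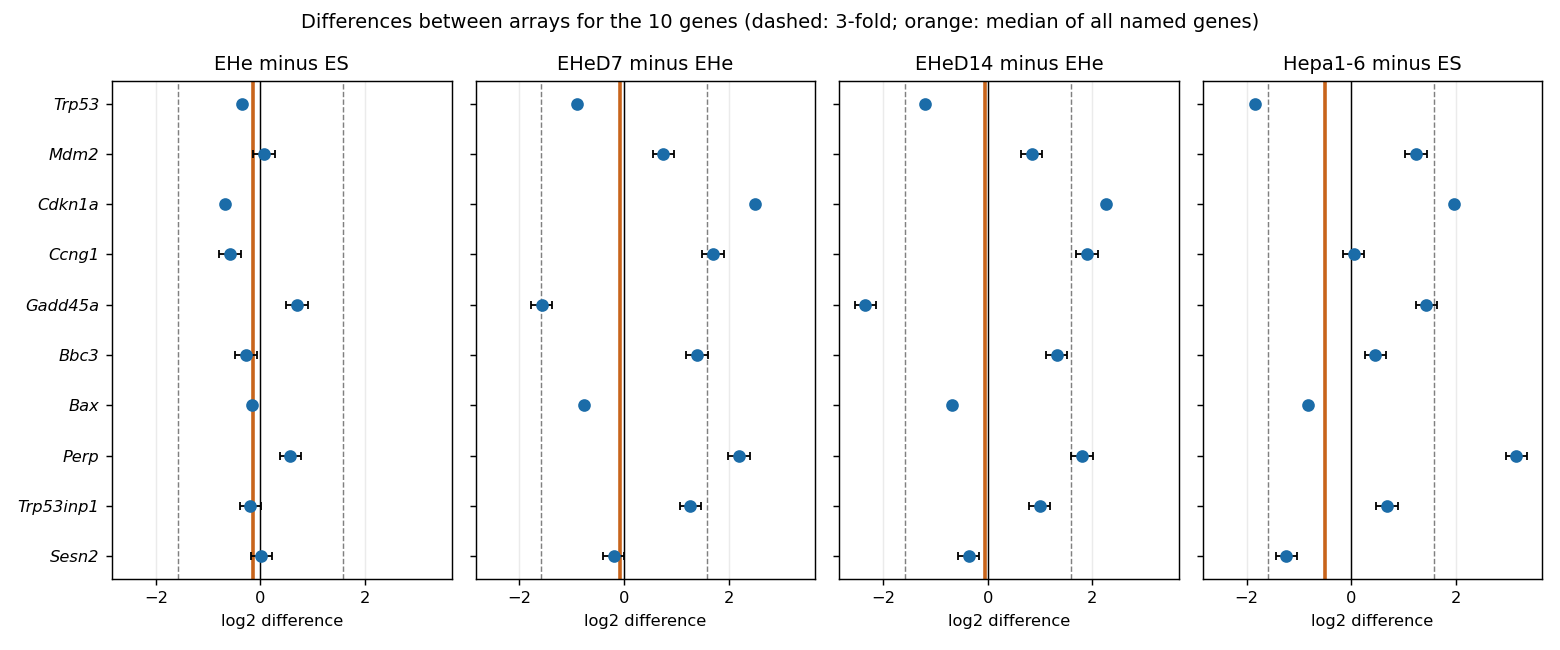
Log2 differences of the 10 genes in 4 comparisons, with error bars for the measurement on the 2 arrays (spots, or scanner software for probes with 1 spot), dashed lines at 3-fold and an orange line at the median of all named genes. No gene passes 3-fold between EHe and ES, Cdkn1a, Ccng1 and Perp pass it at both days of differentiation, and Gadd45a passes it downwards at day 14.

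Between the parents, 2 of 10 members passed 3-fold upwards in Hepa1-6, Cdkn1a and Perp, against 14.1% of all genes, and 1 of 10 downwards, Trp53, against 27.6%. The scaling changes this background. After median centring of the arrays, 22.5% of genes were over 3-fold higher and 17.8% lower, the median of all genes moved from -0.49 to 0.29, and the members past 3-fold were 4 higher and 0 lower, with Trp53 at less than 3-fold. The difference of Trp53 was also under 3-fold when its 2 probes were averaged, at -0.85. Past 2-fold, Cdkn1a, Mdm2, Perp and Gadd45a were higher in Hepa1-6, 4 of 10 against 19.8% of genes, and Trp53 and Sesn2 lower, 2 of 10 against 38.2%.

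Against Hepa1-6, EHe had 2 members over 3-fold lower, Cdkn1a and Perp, against 14.5% of genes, and 0 higher, against 23.2%. Past 2-fold it had Trp53 and Sesn2 higher, 2 of 10 against 33.7%, and 3 lower, Mdm2 besides those past 3-fold, against 20.8%. EHeD14 had 1 member over 3-fold lower, Gadd45a, against 13% of genes, and 0 higher, against 23.5%. Past 2-fold it had Ccng1 higher, 1 of 10 against 33.2%, and Gadd45a lower, against 19.8%. With median centring the background was 15.7% higher and 22.0% lower for EHe and 15.5% higher and 23.6% lower for EHeD14. In EHeD14, Cdkn1a lay 1.28-fold and Perp 1.72-fold below Hepa1-6, where EHe had been 6.18-fold and 5.99-fold below. Because the Hepa1-6 array is shared by these comparisons and the EHeD14 and EHe values were already compared directly, these values are given side by side only.

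The wider pathway was read from lists of genes grouped by their role. A list of 63 further p53 targets had 61 measured members. Their median log2 difference was 0.33 in EHeD7 and 0.37 in EHeD14 against EHe, where all genes had -0.08 and -0.05. Of the 61, 10 were over 3-fold higher and 4 lower at day 7, where 9.37% and 4.67% of all genes were. At day 14, 9 were higher and 4 lower, where 9.58% and 5.15% of all genes were. Between EHe and ES the median of the list was -0.25, beside -0.14 for all genes, and between Hepa1-6 and ES it was 0.08, beside -0.49. Here 15 targets were over 3-fold higher and 14 lower, against 14.1% and 27.6% of all genes, and with median centring the median of the list was 0.86, beside 0.29 for all genes.

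Among the arrest and feedback targets, 2 of 14 were over 3-fold higher and 1 lower in EHeD14 than in EHe, against 9.58% and 5.15% of all genes, with a median of 0.22. Btg2, an antiproliferative gene, had a level of 0.83 in ES and -0.07 in EHe, 2.52 on day 7 and 2.19 on day 14 of differentiation, and 1.93 in Hepa1-6, the same order of low and high arrays as Cdkn1a apart from Hepa1-6, with EHeD14 4.76-fold above EHe. Plk2, a stress-induced kinase, was 3.32-fold higher and its relative Plk3 was 3.17-fold lower. Rprm, which holds cells in G2, was 2.23-fold lower. Sfn was counted on a probe with a log2 difference of -0.02 at day 14, while its other probe was higher by 1.83, past 3-fold.

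The apoptosis targets had a median of 0.66 at day 14, with 4 of 16 over 3-fold higher and 0 lower, against 9.58% and 5.15% of all genes. Fas, the death receptor, was at -3.84 in ES and -4.46 in EHe, -0.64 on day 7 and -0.94 on day 14 of differentiation, and 0.34 in Hepa1-6, with EHeD14 11.5-fold above EHe. A second Fas probe was well above background only in Hepa1-6. Pmaip1 encodes Noxa, which like Puma binds anti-apoptotic members of the Bcl2 family. Its level was 0.31 in ES and -0.30 in EHe, 2.64 on day 7 and 2.11 on day 14 of differentiation, and 3.15 in Hepa1-6, with EHeD14 5.33-fold above EHe. Fas and Pmaip1 were low in ES and EHe and high on the other 3 arrays. Phlda3, a repressor of Akt signaling, was 3.87-fold higher at day 14. Trp53i11 and Trp53i13 were 2.37-fold and 1.41-fold lower.

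The repair, redox and metabolism targets had a median of 0.20 at day 14, with 0 of 22 over 3-fold higher and 2 lower, against 9.58% and 5.15% of all genes. The 2 were Gpx1, which reduces peroxides, at 6.88 in EHe and at 5.10 in EHeD14, and Sod2, the mitochondrial superoxide dismutase, at 5.86 and 4.06. They were 3.43-fold and 3.48-fold lower. Dram1, a lysosomal regulator of autophagy, and the adenylate kinase Ak1 were higher by 1.58 and 1.47 on the log2 scale, the first just under 3-fold.

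Of 9 secreted and matrix targets, 3 were over 3-fold higher and 1 lower at day 14, against 9.58% and 5.15% of all genes. Thbs1, thrombospondin, was not well above background in ES or EHe and reached -2.73 in EHeD7, -2.99 in EHeD14 and 1.17 in Hepa1-6, at least 3.61-fold higher in EHeD14 than in EHe. Of its 3 probes, 2 were well above background in the differentiated hybrids. Igfbp3, which binds insulin-like growth factors, was 4.34-fold higher and Tgfa, a ligand of the epidermal growth factor receptor, 4.16-fold higher. Gdf15, a stress cytokine, was 10.0-fold lower in EHeD14 than in EHe, with levels of 0.21 in ES and 2.45 in EHe, -0.40 on day 7 and -0.87 on day 14 of differentiation, and 4.99 in Hepa1-6. It shared with Gadd45a a level that was high in Hepa1-6, intermediate in EHe and low in the differentiated hybrids. Adgrb1, an adhesion receptor, was 2.09-fold lower. In Hepa1-6 against ES, 7 of the 9 were over 3-fold higher, against 14.1% of all genes. With median centring the share of all genes was 22.5%, and the list was not recounted on that scale.

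**Figure D4:**
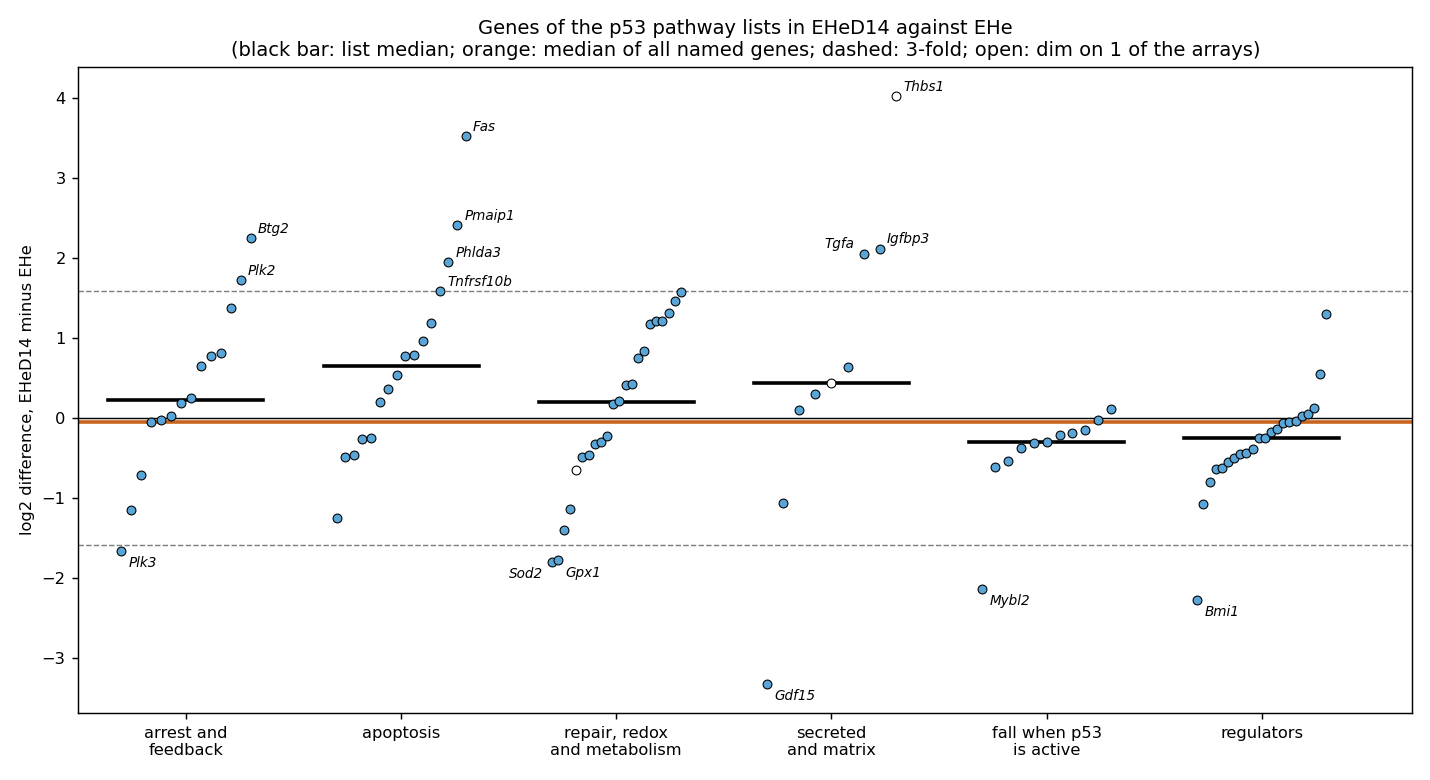
Log2 difference between EHeD14 and EHe for each measured gene of 6 lists, with a black bar at the list median, an orange line at the median of all named genes and dashed lines at 3-fold. Open circles are genes not well above background on at least 1 of the 2 arrays. The apoptosis list has the highest median, 0.66, and the genes past 3-fold include Fas, Pmaip1 and Thbs1 above and Gdf15 below.

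Genes that fall when p53 is active, most of them mitotic genes, had a median of -0.30 in EHeD14 against EHe. All named genes had a median of -0.05. Of the 11 listed genes, 0 were over 3-fold higher and 1 lower, against 9.58% and 5.15% of all genes. This 1 was Mybl2, a cell cycle transcription factor, 4.39-fold lower. Cdc20, an activator of mitotic proteolysis, was at 6.65 in EHe and 6.77 in EHeD14. Cdc25c, a phosphatase that starts mitosis, was 1.52-fold lower. In Hepa1-6 against ES 8 of the 11 were over 3-fold lower, with a median of -2.04, against 27.6% of all genes and a median of -0.49. With median centring the share of all genes was 17.8% and their median 0.29. That scaling also raises the differences of the list, as it does for Trp53, from -1.85 to -1.06. The list was not recounted on it, so its count of 8 cannot be set against the 17.8%. The summed linear signal of 5 proliferation markers over the array's percentile was 154 in EHe, 122 in EHeD7, 130 in EHeD14, 140 in ES and 70.2 in Hepa1-6. Pcna was the brightest of the 5 on every array. Top2a, Pcna, Mcm2 and Ccna2 were lower in Hepa1-6 than in ES and lower in EHeD7 than in EHe. Mki67 ran against the sum, at 3.61 in ES and 4.33 in Hepa1-6, and at 4.84 in EHe and 4.94 in EHeD7.

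Regulators of p53 other than Mdm2 had a median of -0.25 at day 14, and 0 of 22 were over 3-fold higher and 1 lower, against 9.58% and 5.15% of all genes. This was Bmi1, which represses the Cdkn2a locus, on a probe that was 4.85-fold lower, while its other probe was 0.62 higher on the log2 scale at day 14. At day 7 both probes were lower, with differences of -2.39 and -2.31. From RT-PCR of embryoid bodies the study reports Bmi1, p21 and Fas as upregulated when its hybrids differentiated. On the arrays Cdkn1a and Fas were higher at day 7 than in EHe, while Bmi1 was lower. Why Bmi1 differed was not tested. Ppp1r13l, an inhibitor of p53, was 2.46-fold higher on 1 probe and lower, by -0.93 on the log2 scale, on the other. Cdkn2a encodes p16 and the Arf protein that blocks Mdm2, and which of these transcripts its probe reads was not analysed. It was at -3.83 in ES and -4.17 in EHe, -4.80 on day 7 and -5.25 on day 14 of differentiation, and 0.44 in Hepa1-6. The lowest detected signal of the EHeD14 array was -5.55. On these arrays Cdkn2a was thus high in the hepatoma line and low on the 4 other arrays. The study, by contrast, reports from RT-PCR that p16 and Arf were undetectable in Hepa1-6. The cause of this difference was not tested. Chek2, a kinase that activates p53, was 1.47-fold higher at day 14, and of the relatives of p53, Trp73 was 1.22-fold higher and Trp63 had no probe well above background.

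The study's own list for its p53 signaling pathway, chosen by the study on these samples and so no independent evidence of a direction, had 7 genes. Their median in EHeD14 against EHe was -0.77, where all genes had -0.05. Of the 7, 1 was over 3-fold higher and 0 lower, against 9.58% and 5.15% of all genes. This 1 was Thbs1, which was not well above background in EHe.

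Markers of cell types were read on the same arrays. Of 6 pluripotency markers 5 had a named probe, and all 5 were well above background in ES, EHe, EHeD7 and EHeD14 and none in Hepa1-6. Their summed linear signal over the array's percentile was 102 in ES, 109 in EHe, 45.4 in EHeD7 and 36.3 in EHeD14. Pou5f1, which encodes Oct4, was at 4.04 in EHe and 4.18 in EHeD14, while Esrrb went from 4.02 to -2.84. All 7 trophoblast markers were well above background in ES, EHeD7 and EHeD14 and 4 of them in EHe. Their summed signal was 6.41 in ES and 1.44 in EHe, 71.9 on day 7 and 102 on day 14, and 384 in Hepa1-6. Krt8 and Krt18 were the brightest of these 7 on every array and carried most of each sum. They were at 5.02 and 5.17 in EHeD7 and at 5.64 and 5.61 in EHeD14. The next brightest there, Eomes, was at 0.62 and 0.59, from -3.38 in EHe. In Hepa1-6 the sum was almost wholly from Krt8 and Krt18, with Cdx2, Eomes, Gata3 and Hand1 not well above background. Of 9 fibroblast markers, 5 were well above background in EHe and 7 in EHeD14. Their summed signal was 22.4 in ES and 40.5 in EHe, 16.4 on day 7 and 20.6 on day 14, and 183 in Hepa1-6, a sum carried by Vim, at 5.30 in EHe, and by Dcn, at 7.46 in Hepa1-6. Col1a1, Col1a2, Col3a1, Pdgfrb and Thy1 ran against this sum, higher in EHeD14 than in EHe, with Col1a1 at -4.17 in EHe and 0.11 in EHeD14, and all but Col1a2 were not well above background in Hepa1-6, nor Col3a1 in EHe. Alb was well above background only in Hepa1-6, and the hepatocyte list summed to at most 0.558 on the other 4 arrays and 202 in Hepa1-6. The part of these cell types in the values of the members was not tested.

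The genes whose pattern over the 5 arrays was most like that of a member were ranked by the root mean square of the log2 difference after each of the 10912 genes detected on all 5 arrays had been centred on its own mean. For Trp53 these were Ccpg1, at 0.065, Zfp446, at 0.069, and Usp37, at 0.075. For Cdkn1a they were Paqr5, at 0.11, Grip1, at 0.12, and Lrrc51, at 0.15. For Mdm2 they were Rabgap1l, at 0.041, Trappc6a, at 0.068, and Dpm3, at 0.076. Over 5 arrays such a likeness describes only how near the centred levels lay to each other, and the order of the arrays could still differ. The range between the highest and lowest array had a median of 1.62 on the log2 scale for the 10 members and 1.36 for the 10912 genes.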

How the data were processed

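RNA of 5 mouse cell populations was labelled (Cy3 by the labels, Cy5 by the methods of the study) and hybridised to 5 arrays, 1 per group, with groups taken from the sample labels. For each array the authors deposited the output of its scanner software, named in the submitters' processing notes as Agilent Feature Extraction 10.7.3.1. Its processed signal is an intensity, background-corrected by the software and not normalized between arrays, and its error, outlier and well-above-background calls are other columns the authors deposited. The deposited series table held the same intensities, with a largest difference of 0.

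Control and outlier spots were left out, the 75th percentile of each array was subtracted from its log2 signals, and spots were averaged. Probes were named through RefSeq transcript records (26888 of 41174). A gene took the probe well above background on most arrays and, among equals, the brightest. Shares of all genes are over 15446 genes. A fold against an array without such a call is a lower bound at that array's lowest detected signal. Genes were named by rule: the 10 members, and from each list the 2 highest and 2 lowest in EHeD14 against EHe and those past 3-fold on both days. Sfn was named besides because its probes disagree. The members and lists were chosen with earlier results of these data known. Alternatives were quantile normalization, median centring, normexp (offset 50, on the median spot signal), dim values at the detection limit, the mean of a gene's probes, the series table and a 2-fold threshold. Counting was tested on simulated data. R 4.3.3 with limma 3.58.1 and Python 3.11.15 with pandas 2.3.3, numpy 2.4.6 and matplotlib 3.10.9 were used. The result of 1 gene that the rule names is not reported here.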

Additional observations from a re-analysis of the deposited data

How the results depend on the processing

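In all 6 other settings of scaling, background, dim values and probe choice that were run, the 10 members kept their direction in EHeD7 against EHe, EHeD14 against EHe, EHeD14 against EHeD7 and Hepa1-6 against ES. Between EHe and ES, Mdm2 and Sesn2 changed sign with normexp, against Hepa1-6 Bax changed sign in EHe with median centring and in EHeD14 with quantile normalization and normexp, and Trp53, Bbc3 and Trp53inp1 changed sign in EHeD14 with median centring, Trp53 and Trp53inp1 also with the mean of probes. Of 98 counts of members past the threshold, 86 stayed within 1.5 times. With the 2-fold threshold the counts were 5 higher and 1 lower in EHeD7 against EHe, 2 lower in EHeD14 against EHe, 4 higher and 2 lower in Hepa1-6 against ES, 2 higher in EHe against Hepa1-6 and 1 higher in EHeD14 against Hepa1-6. With median centring they were 1 lower in EHeD7 against EHe, 4 higher and 0 lower in Hepa1-6 against ES and 2 lower in EHeD14 against Hepa1-6. With the mean of a gene's probes, 0 were lower in Hepa1-6 against ES, and Ccng1 lay under 3-fold in EHeD7 and EHeD14 against EHe, at 1.43 and 1.52 on the log2 scale. With quantile normalization Sesn2 was no longer below both ES and EHe on both days, which left 3 members below. The cause of these shifts was not tested.

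No paired analysis was possible because each group had 1 array. With 1 array per population, the spread between cultures is unknown, and leaving out an array would leave out a population. Spots and scanner error measure the array alone. Hepa1-6 differs from the other arrays by its slide too. For Trp53 the choice of probe decides whether EHeD7 and Hepa1-6 are seen as lower, while both probes were lower in EHeD14 than in EHe. Signal over background was sufficient for all members on all arrays, while Thbs1 and other dim list genes have bounds only.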
